A study of Mus musculus with 4 samples.

Results

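The shortest chromatin loops of the mouse uterus were taken from lists of loops called in Hi-C libraries, an assay that joins and reads pieces of DNA held near each other in nuclei. A short loop was a listed pair of 5 kb anchors whose starts lie 35 to 60 kb apart. The 4 lists held 8766 such loops among 59353 loops in all, with 4123 of 21829 in the knockout list, 1400 of 11752 in the progesterone list, 2370 of 16387 in vehicle replicate 2 and 873 of 9385 in vehicle replicate 3. Tissue came from ovariectomised C57BL/6J females over 10 weeks old that had rested for 10 to 14 days, and the uterus was frozen 1 h after a single injection. The knockout library (genotype label Ex3aERKO, lacking estrogen receptor alpha, ERα, the product of Esr1) was made after 100 ul of saline given into the abdominal cavity. For the progesterone library, wild-type mice were given progesterone (1 mg, in 100 ul of sesame oil) by subcutaneous injection. Both vehicle libraries were of wild-type mice with the same saline injection as the knockout, so progesterone and vehicle also differ in carrier and route. There is 1 knockout and 1 progesterone library, and no test was made between conditions. The sources used here do not say whether a library came from 1 uterus or several, and estradiol libraries were not analysed here. The lists hold positions and no expression values, so the tissue and genotype labels could not be checked against marker levels.

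Loops form when cohesin extrudes a thread of chromatin until it meets CTCF bound to DNA, and also where promoters and enhancers touch. Loops this short can span a single gene or join a promoter to a neighbour, and many lie within larger loops. In the uterus, estrogen acts through ERα on growth factor and cell cycle genes, while progesterone acts through its receptor, the product of Pgr, on genes of stromal differentiation. A loop that is not in a list was not called there, which does not show that the contact was missing, because read depth and loop strength are unknown.

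Promoter sequences inside anchors are shown for a few short loops. Of 21044 promoter windows of RefSeq on GRCm38.p6, each running from 250 bases before to 50 bases after a transcription start, 456 lay with the start in an anchor of a short loop found in all 4 lists. Their mean GC content was 61.5% ± 9.12 (SD over windows), against 56.4% ± 11.5 for all windows. In single lists the mean was 61.5% to 62.1% at anchors of short loops, against 61.4% to 62.5% at anchors of longer loops (5 kb anchors, over 60 kb). The 4 shown first belong to growth response, collagen and myosin genes named below, and each starts in an anchor of a short loop found in all 4 lists. Capitals mark the bases from the transcription start on. The windows are chr13:5861239-5861538 on the plus strand for Klf6, chr17:26508423-26508722 on the minus strand for Dusp1, chr6:4505368-4505667 on the plus strand for Col1a2 and chr2:156775214-156775513 on the plus strand for Myl9, all written 5′ to 3′.
Klf6: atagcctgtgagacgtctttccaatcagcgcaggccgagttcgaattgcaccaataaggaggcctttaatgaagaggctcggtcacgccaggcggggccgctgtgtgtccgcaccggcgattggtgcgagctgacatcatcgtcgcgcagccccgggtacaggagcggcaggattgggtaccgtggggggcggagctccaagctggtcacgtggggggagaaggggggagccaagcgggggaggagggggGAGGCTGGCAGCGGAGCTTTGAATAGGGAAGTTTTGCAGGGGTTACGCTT
Dusp1: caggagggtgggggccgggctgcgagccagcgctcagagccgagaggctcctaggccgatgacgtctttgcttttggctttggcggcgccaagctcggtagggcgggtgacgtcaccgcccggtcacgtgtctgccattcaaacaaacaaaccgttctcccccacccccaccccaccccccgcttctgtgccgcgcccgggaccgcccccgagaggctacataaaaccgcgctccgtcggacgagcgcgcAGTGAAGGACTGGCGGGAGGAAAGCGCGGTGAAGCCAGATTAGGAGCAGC
Col1a2: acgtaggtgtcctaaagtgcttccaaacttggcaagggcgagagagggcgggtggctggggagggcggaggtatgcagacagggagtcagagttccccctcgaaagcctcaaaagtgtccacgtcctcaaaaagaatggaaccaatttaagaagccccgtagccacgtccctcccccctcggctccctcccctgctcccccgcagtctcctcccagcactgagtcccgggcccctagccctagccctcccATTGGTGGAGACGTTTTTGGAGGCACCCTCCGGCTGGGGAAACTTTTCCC
Myl9: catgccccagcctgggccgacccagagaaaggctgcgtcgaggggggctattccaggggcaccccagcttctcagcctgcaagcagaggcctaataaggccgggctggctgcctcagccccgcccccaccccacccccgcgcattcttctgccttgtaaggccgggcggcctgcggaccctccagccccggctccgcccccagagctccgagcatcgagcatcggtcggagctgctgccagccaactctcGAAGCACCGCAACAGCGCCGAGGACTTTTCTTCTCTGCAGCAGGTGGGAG
GC content was 63.0% at Klf6, 67% at Dusp1, 61.0% at Col1a2 and 68.3% at Myl9, and these windows held 23, 31, 13 and 20 CpG pairs in the same order. Windows not shown of other list genes so placed had 52.3% GC at Apoa2, 57.3% at Col6a1, 57.7% at Mcm5 and 61.3% at Arid1a, with 1, 3, 25 and 22 CpG pairs. No window of Myc, Bhlhe40, Fosb, Col1a1 or Acta2, also named below, was among the 8 read here. None of the 8 held a match to the CTCF core, to the palindromic estrogen response element or to the progesterone response element, all searched on both strands with no match allowed to differ from the pattern.

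A CTCF core match was present in 4 of the 456 windows (0.877%), against 119 of all 21044 windows (0.565%). In promoters at short-loop anchors of single lists the share was 0.978% in the knockout, 0.521% after progesterone, 0.919% in vehicle replicate 2 and 0.605% in vehicle replicate 3. At anchors of longer loops it was 0.973%, 1.47%, 1.38% and 2.17% in the same order of libraries. The 4 windows with a match are shown with the match in capitals, at chr10:128745035-128745334 on the minus strand (Dgka, a diacylglycerol kinase gene), chr11:49243941-49244240 on the plus strand (Mgat1, a glycosyltransferase gene), chr19:4012706-4013005 on the minus strand (Ndufv1, a respiratory complex I gene) and chr3:90612644-90612943 on the plus strand (S100a6, a calcium-binding protein gene). A match describes letters and is no measured binding site.
Dgka: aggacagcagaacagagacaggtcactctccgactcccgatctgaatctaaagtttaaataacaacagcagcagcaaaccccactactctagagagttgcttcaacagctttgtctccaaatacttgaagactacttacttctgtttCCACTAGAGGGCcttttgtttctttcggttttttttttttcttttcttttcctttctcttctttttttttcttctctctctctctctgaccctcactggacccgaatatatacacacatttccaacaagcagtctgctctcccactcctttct
Mgat1: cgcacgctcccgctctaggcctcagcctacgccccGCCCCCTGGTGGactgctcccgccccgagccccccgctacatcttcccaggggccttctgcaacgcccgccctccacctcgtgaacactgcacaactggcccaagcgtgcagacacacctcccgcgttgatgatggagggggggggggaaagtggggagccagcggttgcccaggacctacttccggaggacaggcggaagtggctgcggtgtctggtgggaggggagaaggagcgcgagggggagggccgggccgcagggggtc
Ndufv1: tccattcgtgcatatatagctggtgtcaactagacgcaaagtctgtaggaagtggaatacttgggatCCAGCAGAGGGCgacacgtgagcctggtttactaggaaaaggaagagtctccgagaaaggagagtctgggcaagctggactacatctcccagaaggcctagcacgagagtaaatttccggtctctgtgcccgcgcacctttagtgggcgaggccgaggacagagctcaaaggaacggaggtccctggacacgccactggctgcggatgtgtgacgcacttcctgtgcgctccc
S100a6: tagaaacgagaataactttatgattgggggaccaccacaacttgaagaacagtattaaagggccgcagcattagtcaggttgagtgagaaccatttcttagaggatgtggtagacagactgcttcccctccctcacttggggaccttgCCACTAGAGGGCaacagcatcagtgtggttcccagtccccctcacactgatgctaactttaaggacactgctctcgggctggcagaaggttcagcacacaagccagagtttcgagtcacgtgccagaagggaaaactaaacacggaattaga
The S100a6 window lay in the second anchor of a 35 kb loop on chromosome 3 from 90575001 to 90615000, with S100a2, S100a4, S100a5 and S100a6 wholly inside. The Mgat1 window lay in the second anchor of a 40 kb loop that started at Zfp62, and the Ndufv1 window in the first anchor of a 40 kb loop that held Gstp1 and Gstp2, glutathione transferase genes. A 60 kb loop ran from Dgka and Pym1 to Tmem198b with the matrix metalloproteinase gene Mmp19 inside. The estrogen response element was found in 6 of all windows (0.0285%) and in 0 windows at anchors of short or of longer loops of any list. It is so rare that 0 in these smaller sets shows no lack at anchors. The progesterone response element was found in 0.219% of the 456 windows and in 0.214% of all windows.

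Short loops made up 18.9% of the loops in the knockout list (95% interval 18.4 to 19.4), 11.9% after progesterone (11.3 to 12.5), 14.5% in vehicle replicate 2 (13.9 to 15) and 9.30% in vehicle replicate 3 (8.72 to 9.91). These exact Clopper-Pearson intervals, like all others here, cover counting error only, and neighbouring loops are not independent. Among loops with 5 kb anchors alone the shares were 29.1%, 24.0%, 24.6% and 22.1%. The knockout list had 4.72 times, the progesterone list 1.60 times and vehicle replicate 2 had 2.71 times as many short loops as vehicle replicate 3, against 2.33, 1.25 and 1.75 times as many loops of any kind. The progesterone library thus lay between the vehicle replicates in number. Anchors of 10 kb were used for a further 568, 401, 443 and 435 loops of the same lengths, so the lists differed in loops called at 5 kb and hardly in those called at 10 kb.

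The length make-up was alike in the 4 lists. Loops of 35 kb were the commonest, with 1090 in the knockout, 352 after progesterone, 619 in vehicle replicate 2 and 206 in vehicle replicate 3. Loops of 60 kb were the fewest, at 439, 150, 238 and 109, and the median was 45 kb in every list. Loops of 65 kb, just outside the limit, numbered 422, 141, 242 and 100, so the limit cuts through a smooth range and marks no separate class. By chromosome, X had the fewest short loops for its genes in each list, with 7.14 per 100 protein-coding genes in the knockout, 1.55 after progesterone, 2.28 in vehicle replicate 2 and 0.621 in vehicle replicate 3. The lowest autosome in each list had 15.1, 5.44, 9.09 and 3.09 per 100 genes, and no test was run on chromosomes.

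**Figure D1:**
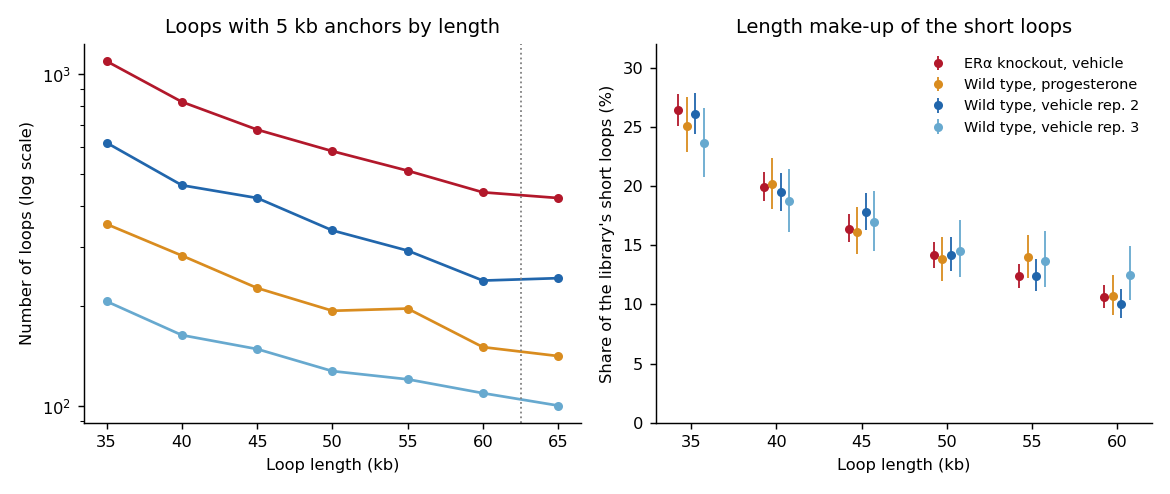
Number of loops with 5 kb anchors at each length (left, log scale, with 65 kb right of the dotted line as the first length outside the range) and the share of each length among a library's short loops (right, percent, bars are exact 95% intervals). Counts are highest at 35 kb and lowest at 60 kb within the range in all 4 libraries, from 1090 to 439 in the knockout and 206 to 109 in vehicle replicate 3, and the intervals of the 4 libraries overlap at most lengths.

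Lists with few short loops had most of them in common with the others. A loop counted as found where another list had a loop, of any length and bin, that touched both of its anchors once each was widened by 10 kb on either side. Of the knockout short loops, 54.2% (52.7 to 55.7) were in at least 1 other list, against 92.2% of the progesterone, 83.1% of the vehicle replicate 2 and 93.8% of the vehicle replicate 3 short loops. In vehicle replicate 2 lay 85.9% of the vehicle replicate 3 short loops, while the reverse held for 38.4%. The knockout list held 86.1% of the progesterone short loops, 78.5% of those of vehicle replicate 2 and 88.9% of those of vehicle replicate 3, and the progesterone list held 1348 of the 4123 knockout short loops, 1185 of the 2370 of vehicle replicate 2 and 700 of the 873 of vehicle replicate 3. Within the short range the share found was lowest at 35 kb in every list, at 47.3% in the knockout, 88.9% after progesterone, 78.5% in vehicle replicate 2 and 91.3% in vehicle replicate 3.

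Short loops were found again less often than longer loops in each library. Their mean share found was 80.8% against 90.5% for longer loops (difference -9.64 percentage points, SD 7.03 over 4 libraries), and it was lower in 4 of 4 libraries. The exact two-sided sign-flip permutation test over the 4 libraries gave p = 0.13, adjusted p = 0.13 over 12 features, which is the smallest p that 4 libraries allow, so no difference between short and longer loops could pass 0.05. For single pairs of lists the gap was widest for progesterone loops looked for in vehicle replicate 3, of which 54.6% of the short and 82.0% of the longer loops were found, and for vehicle replicate 2 loops looked for in vehicle replicate 3, with 38.4% and 68.3%. Of the short loops found, 74.1% to 95.9% over the 12 pairs of lists had a short loop as a match. The match rule itself keeps the lengths close.

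**Figure D2:**
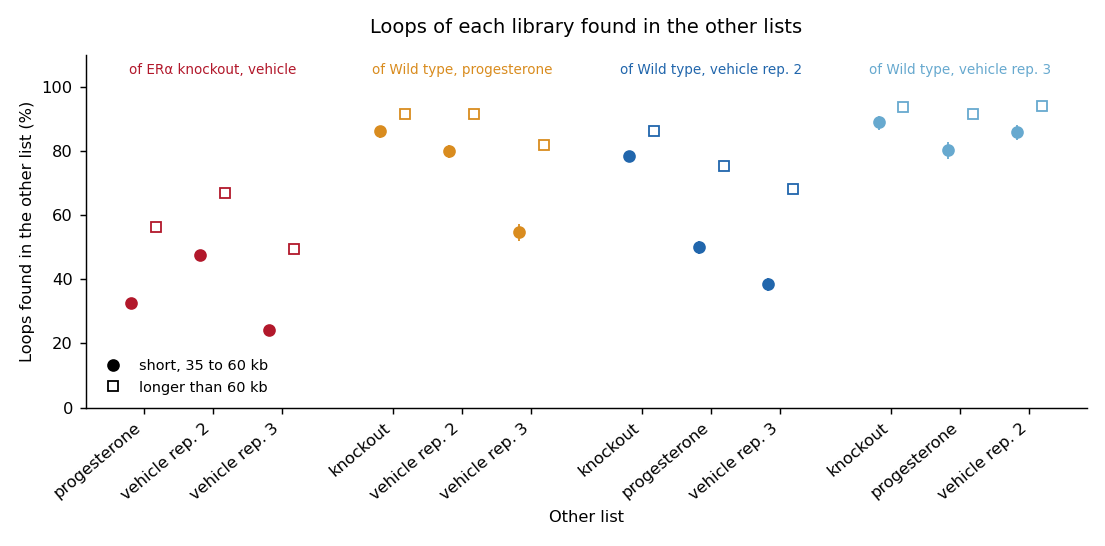
Percent of each library's loops found in each other list, for short loops (filled circles) and longer loops with 5 kb anchors (open squares), with exact 95% intervals. Every filled circle lies below its open square, with the lowest at 24.2% for knockout short loops in vehicle replicate 3 and the highest at 88.9% for vehicle replicate 3 short loops in the knockout list.

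In the positions of vehicle replicate 2, 735 short loops were in all 4 lists (31.0%, 29.2 to 32.9), and 316 of them had the same bins in every list. Seen from the other lists, 748 knockout, 695 progesterone and 645 vehicle replicate 3 short loops were in all 4. Of the 735 loops, 411 had the start or end of a protein-coding gene in an anchor, 109 had one in both anchors, 83 lay wholly inside 1 gene and 357 held a whole gene. In the vehicle replicate 2 list 520 of them shared an anchor with another loop, and 649 lay inside a longer loop. Set against one another alone, 705 of the 735 overlapped no other, and 15 stretches held 2 overlapping loops. Among these stretches, Ngfr, the neurotrophin receptor gene, sat at the shared anchor of 55 and 60 kb loops on chromosome 11 that together ran from 95530001 to 95650000. Arhgap23, a GTPase regulator gene, held loops of 35 and 60 kb with a common end, Ssbp2 and Adcy5 lay in similar stretches, and a pair of 55 kb loops on chromosome 1 from 167955001 to 168070000 had no protein-coding gene at an anchor.

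Several immediate early genes that estrogen induces had short loops found in all 4 lists. In the positions of vehicle replicate 2, protein-coding genes at an anchor of such a loop numbered 607, or 2.81% of 21627. Of the 38 early estrogen response genes, 5 were among them, namely Klf6, Myc, Dusp1, Bhlhe40 and Fosb. Klf6, a zinc finger factor gene, had a 60 kb loop on chromosome 13 from 5800001 to its start in the anchor at 5860001, with the same bins in the knockout, progesterone and both vehicle lists. Myc, the growth regulator gene, had a 50 kb loop from 61985001 on chromosome 15 to the anchor at 62035001, again with the same bins in all 4. At Fosb, an AP-1 subunit gene, a 40 kb loop from 19300001 on chromosome 7 led to the DNA repair gene Ercc1 in all 4 lists. The Bhlhe40 loop on chromosome 6 was 45, 40, 45 and 40 kb long in the knockout, progesterone, vehicle replicate 2 and vehicle replicate 3 lists. The 40 kb Dusp1 loop had the same bins in the knockout, progesterone and vehicle replicate 2 lists, and vehicle replicate 3 had a loop of 35 kb that ended in the bin before Dusp1.

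Of the 27 late estrogen response genes, 2 were at short loops found in all 4 lists, both of them DNA replication genes. The 35 kb loop at Mcm5, a replicative helicase gene, ran on chromosome 8 from the anchor at 75070001, which holds an end of Tom1, to that at 75105001, with the heme oxygenase gene Hmox1 between. Cdc6, a replication licensing gene, lay at a 50 kb loop on chromosome 11 from 98920001 that reached Rara, the retinoic acid receptor alpha gene. That loop was a short loop of 5 kb anchors with the same bins in the progesterone and both vehicle lists. Its match in the knockout list was a 35 kb loop from 98925001, past the end of Cdc6 at 98923942. The knockout short loop at Cdc6 was another, of 45 kb from 98860001.

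Collagen and contractile genes, which mark the stroma and the muscle wall of the uterus, stood at short loops as well. Col1a1 had a 35 kb loop from 94935001 to the anchor at 94970001 on chromosome 11 that contained the whole gene and had the same bins in all 4 lists. Col6a1 had a 60 kb loop on chromosome 10 from 76665001 with the same bins in all 4. Col1a2 had a 50 kb loop upstream, from 4455001 on chromosome 6, in the knockout, progesterone and vehicle replicate 2 lists, matched in vehicle replicate 3 by a loop with 10 kb anchors. The 40 kb loop at Acta2, the smooth muscle actin gene, ran from 34240001 on chromosome 19 in the knockout, progesterone and vehicle replicate 2 lists, and was 45 kb long in vehicle replicate 3. Myl9, a myosin light chain gene, was at a loop of 55 kb in the knockout, 50 kb after progesterone and 55 kb in vehicle replicate 2, with a match of 10 kb anchors in vehicle replicate 3. Synpo2, a muscle actin-binding protein gene, held 1, 2, 1 and 1 short loops within its body in the knockout, progesterone, vehicle replicate 2 and vehicle replicate 3 lists.

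Steroid receptor coregulators completed the named set. Arid1a, a chromatin remodelling subunit gene, had a 55 kb loop on chromosome 4 from 133755001 with the same bins in all 4 lists. Ncoa3, a coactivator gene, held a 40 kb loop inside its body that was found in all 4, and so did Nipbl, the cohesin loader gene, with a 60 kb loop. Apoa2, from the hepatocyte list, shared its anchor with Tomm40l, and positions alone cannot tell which gene such a loop concerns.

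**Figure D3:**
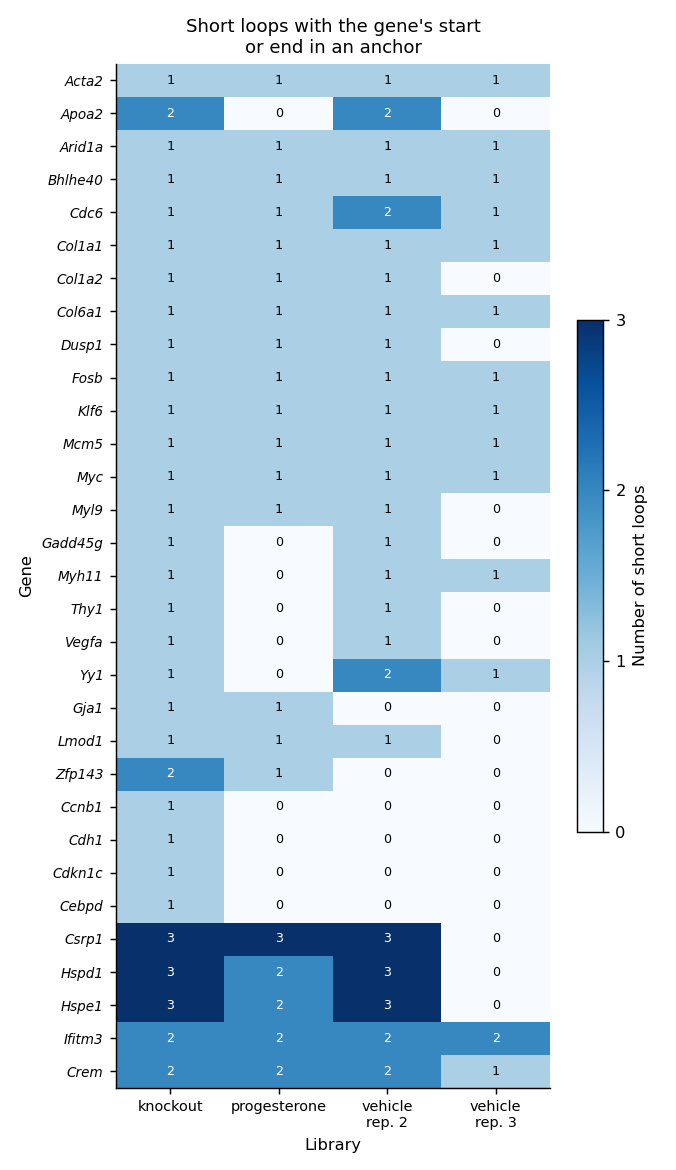
Number of short loops with the start or end of the gene in an anchor (cells, 0 to 3), for the named genes of the gene lists and the 5 genes with the most short loops, in the knockout, progesterone and both vehicle libraries. Acta2, Arid1a, Bhlhe40, Col1a1, Col6a1, Fosb, Klf6, Mcm5 and Myc have 1 loop in each library, and Csrp1 has 3 in all but vehicle replicate 3.

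Short-loop anchors held a start or end of 3468 protein-coding genes in the knockout list (16.0%), 1155 after progesterone (5.34%), 1944 in vehicle replicate 2 (8.99%) and 661 in vehicle replicate 3 (3.06%). Of the 38 early estrogen response genes, 14, 7, 10 and 6 were at such anchors in the same order of libraries, or 36.8%, 18.4%, 26.3% and 15.8%. Stromal markers numbered 5, 3, 5 and 2 of 14, smooth muscle markers 5, 4, 6 and 2 of 13, and steroid receptor and coregulator genes 9, 4, 5 and 3 of 23, each above the share of all genes in all 4 lists. The late estrogen response list, also above that share, had 8, 3, 4 and 2 of 27 genes. At anchors of loops of any length were 33, 29, 32 and 27 early estrogen and 16, 9, 12 and 7 late estrogen response genes. Stromal markers there numbered 14, 10, 12 and 12, smooth muscle markers 8, 7, 10 and 7, and receptor and coregulator genes 19, 12, 13 and 11. All genes gave 43.6%, 27.8%, 34.3% and 23.9%, so standing above all genes was not particular to short loops. The lists were also chosen with earlier results of these data known, so that standing is no independent result. The median number of short loops per gene was 0 in every list and over all genes.

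Most progesterone response and patterning genes had a loop of some length at an end, and a smaller number had a short loop. Of the 35 progesterone response genes, 7 were at short-loop anchors in the knockout, 1 after progesterone, 3 in vehicle replicate 2 and 1 in vehicle replicate 3, while 26, 20, 20 and 21 were at anchors of loops of any length. The 7 of 35 in the knockout lies above the 16.0% of all genes at short-loop anchors, and the shares of 2.86%, 8.57% and 2.86% in the other 3 lists lie below their 5.34%, 8.99% and 3.06%. The 34 reproductive tract patterning genes gave 4, 2, 1 and 0 for short loops and 28, 25, 27 and 24 for any length, against 43.6%, 27.8%, 34.3% and 23.9% of all genes at anchors of any length. Tbx3, a T-box factor gene, was at a short loop in the knockout, progesterone and vehicle replicate 2 lists, and Emx2 in the knockout and progesterone lists. Epithelial and endothelial markers each had 1 gene at a short loop, Cdh1 and Cdh5, both cadherin genes and both in the knockout list alone. The 13 immune markers had 0 in every list. Architectural protein genes numbered 5, 1, 1 and 1 of 15, neuronal genes 2, 0, 1 and 0 of 21 and hepatocyte genes 1, 0, 1 and 0 of 21. Ribosomal protein genes numbered 4, 2, 2 and 1 of 22. Their shares of 18.2%, 9.09%, 9.09% and 4.55% lay little above those of all genes, at 16.0%, 5.34%, 8.99% and 3.06%. Members of a list can share an anchor, list sizes are small, and these counts are descriptions with no test.

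**Figure D4:**
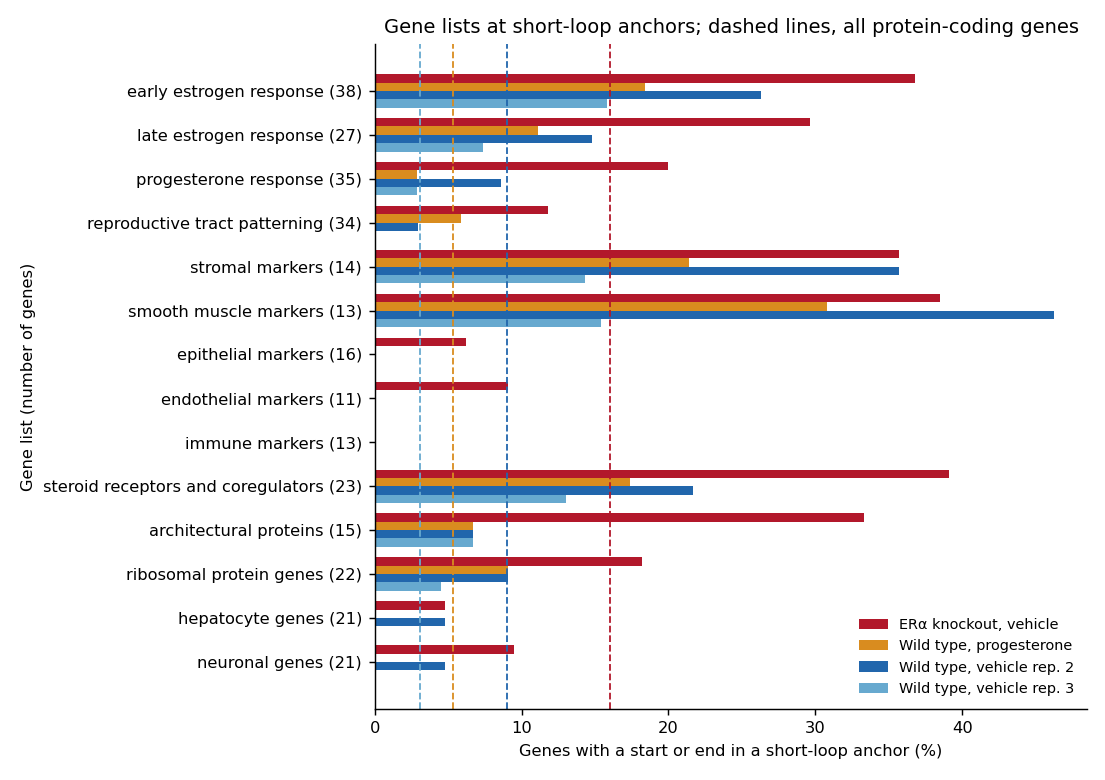
Percent of the genes of each list with a start or end in a short-loop anchor (bars, 4 libraries, number of genes in brackets), with dashed lines at the value of all protein-coding genes in the same library (16.0%, 5.34%, 8.99% and 3.06%). The early estrogen, stromal, smooth muscle, steroid receptor and late estrogen lists lie above the line of the same colour in each library. Lists were chosen with earlier results of these data known. The ribosomal protein list lies little above it (9.09% against 8.99% in vehicle replicate 2), and the immune list is at 0.

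Esr1, the ERα gene, had no start or end at a short loop, and a single 35 kb loop from 4630001 on chromosome 10 lay inside the gene in the knockout list alone. Pgr, the progesterone receptor gene, had 1 short loop, of 55 kb from 8840001 on chromosome 9 to the anchor at 8895001, listed in vehicle replicate 3 and matched by loops of the knockout and progesterone lists. Greb1, an estrogen-induced growth gene, held a 35 kb loop from 16715001 on chromosome 12 with the same bins in all 4 lists. Igf1, the growth factor gene, and Ihh, a progesterone-induced signal, had 0 short loops at a start or end in any list. No Hoxd gene had a start or end at a short loop.

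The genes with the most short loops formed chains of adjoining loops. Csrp1, a cysteine-rich protein gene of smooth muscle, had 3 short loops in the knockout, 3 after progesterone, 3 in vehicle replicate 2 and 0 in vehicle replicate 3, and the 3 had the same bins in the 3 lists. They were 35, 60 and 35 kb long on chromosome 1, starting at 135715001, 135720001 and 135750001, and the 60 kb loop reached the troponin gene Tnni1. The neighbouring chaperonin genes Hspd1 and Hspe1 shared an anchor with 3, 2, 3 and 0 short loops, which led to Sf3b1, Coq10b and Mob4. Ifitm3, an interferon-induced membrane protein gene, had 2 in each list, the first of which led to Ifitm2 over Ifitm1. Crem, a cAMP response factor gene, had 2, 2, 2 and 1. Other genes held short loops within their bodies. Lrmda, which spans over a megabase, held 7, 2, 3 and 1, Rad51b, a DNA repair gene, held 6, 2, 2 and 0, and Arhgap26 held 4, 2, 2 and 1. Pknox2, a homeobox gene, held 3, 2, 4 and 1, of which the 60 kb loop from 36970001 on chromosome 9 had the same bins in all 4 lists. Septin9, a cytoskeletal gene, held 2, 2, 3 and 1, with a 45 kb loop from 117310001 on chromosome 11 in all 4.

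Of the 109 short loops in all 4 lists with a gene end at both anchors, 10 were named by rule. Besides the loops of Apoa2, Cdc6, Fosb and Mcm5, they joined Ube2w, a ubiquitin-conjugating enzyme gene, with Eloc, an elongin subunit gene, Cdc73 with Glrx2, Ephx1 with 9130409I23Rik, Akap7 with Epb41l2, Calhm4 and Trappc3l with Calhm5, and Amd1 with Cdk19. The Ube2w to Eloc loop was 40 kb long, from 16615001 on chromosome 1, with the same bins in all 4 lists.

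Short loops had a gene end in an anchor more often than longer loops did. A gene start or end lay in an anchor of 56.2% of short loops in the knockout, 53.7% after progesterone, 54.5% in vehicle replicate 2 and 51.4% in vehicle replicate 3, against 47.8%, 37.6%, 41.2% and 33.8% of longer loops. The mean was 54.0% ± 1.99 for short and 40.1% ± 5.99 for longer loops (SD, n = 4 libraries), higher for short loops in 4 of 4 libraries. Gene ends at both anchors averaged 17.3% ± 3.17 of short and 8.58% ± 4.33 of longer loops, and a transcription start in an anchor 43.1% ± 3.96 and 27.4% ± 6.84. The mean number of protein-coding genes within 100 kb of the loop's midpoint was 4.76 for short and 2.75 for longer loops. For loops well over 200 kb that window leaves out the anchors. Each of these differences had the same sign in 4 of 4 libraries and an exact p of 0.13 with adjusted p = 0.13, the smallest possible here. Against longer loops of 65 to 200 kb alone, the difference in gene ends at an anchor was 6.89 in place of 13.9 percentage points. In transcription starts it was 10.1 in place of 15.7, and in genes within 100 kb of the midpoint 1.15 in place of 2.00. Each had the same sign in 4 of 4 libraries.

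A loop of 35 to 60 kb can fit inside a gene and hold few genes, so part of the next differences follows from length. Short loops lay wholly inside 1 gene in 14.2% ± 1.22 of cases, against 5.41% ± 0.672 of longer loops, and held a whole gene in 41.8% ± 2.52, against 62.5% ± 1.64. The start and the end of 1 gene stood at opposite anchors of 1.17% ± 0.221 of short and 0.193% ± 0.0745 of longer loops. An anchor was shared with another loop of the same list by 63.7% ± 12.3 of short and 83.5% ± 8.94 of longer loops, and 84.1% ± 8.91 of short loops lay inside a longer loop of their list, against 80.4% ± 7.61 of longer loops (SD, n = 4 libraries each). Of transcription starts in anchors, 49.0% at short and 53.6% at longer loops belonged to a gene that ran into the loop. Each of these had 1 sign in 4 of 4 libraries at the same exact p of 0.13. With longer loops limited to 65 to 200 kb, nesting differed by 0.642 in place of 3.68 percentage points and had that sign in 2 of 4 libraries (exact p = 0.5).

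**Figure D5:**
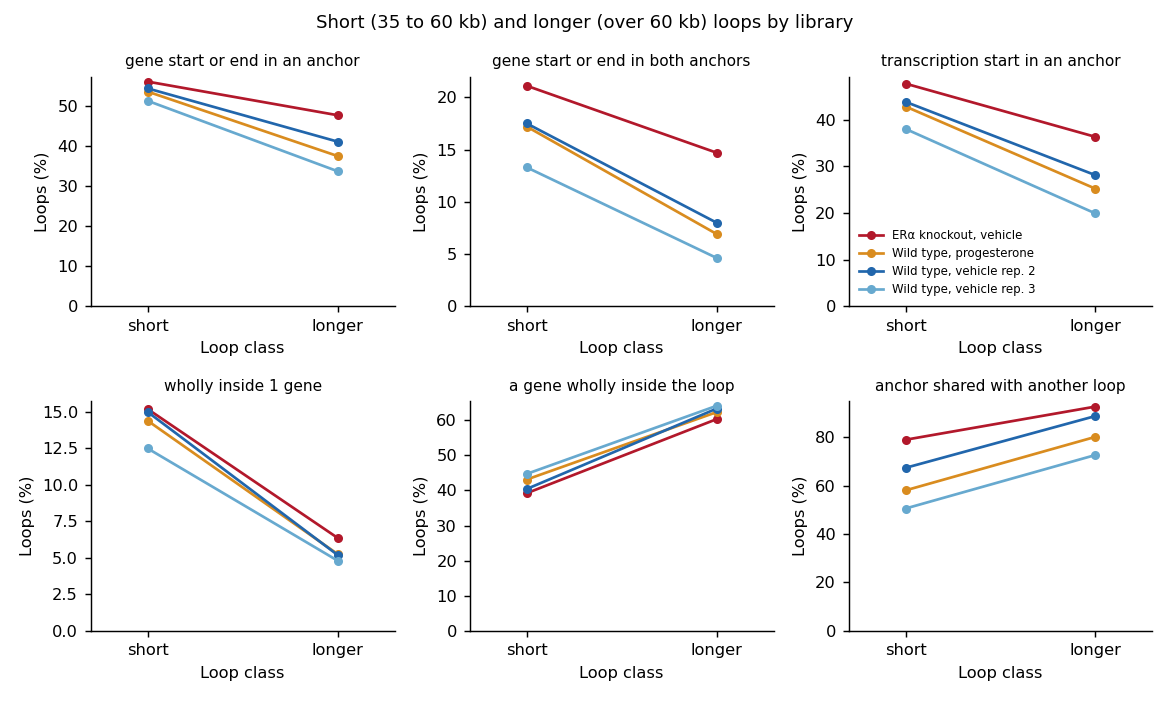
Percent of short loops (left of each panel) and longer loops (right) with each feature, 1 line per library. Gene ends at anchors and loops inside 1 gene are higher for short loops in all 4 libraries (54.0% against 40.1% and 14.2% against 5.41% on average), while whole genes inside and shared anchors are lower.

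Loops without any gene end were shared less when they lay inside a gene. In the knockout list 45.1% of the short loops inside 1 gene with no gene end at an anchor were in another list, against 53.6% of those with no gene end that did not lie inside 1 gene. The same values were 82.8% and 91.2% after progesterone, 73.9% and 80.8% in vehicle replicate 2 and 87.3% and 93.2% in vehicle replicate 3, so the direction was the same in 4 of 4 libraries, and no test was run.

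After progesterone 153 of the 910 short loops found in both vehicle lists were not listed (16.8%, 14.4 to 19.4). The share was 15.1% for loops of all kinds and 9.49% (470 of 4955) for longer loops with 5 kb anchors. Among the 153 were loops at Vegfa, the angiogenic growth factor gene, Myh11, the smooth muscle myosin gene, and Thy1, a stromal surface marker. Others were at Yy1, an architectural factor gene, and Gadd45g, a stress response gene. The progesterone list had 0 loops of any length at an end of Myh11, whose 35 kb loop from 14255001 on chromosome 16 had the same bins in the knockout and both vehicle lists. Yy1 also had 0 progesterone loops of any length, and its 45 kb loop from 108790001 on chromosome 12 had the same bins in those 3 lists. The progesterone list had 2 loops of other lengths at an end of Vegfa, whose short loop was 50 kb long, from 46030001 on chromosome 17, in the knockout and vehicle replicate 2. At Thy1 there were 0 progesterone loops, and the short loop was 50 kb long in the knockout and 45 kb in vehicle replicate 2. For 39 of the 153 loops, Gadd45g among them, a progesterone loop lay within 25 kb of both anchors. Of other genes, 1700003E16Rik, Ago2, Angptl2, Arhgap27 and Atn1 were at such loops, and at 1700003E16Rik, Angptl2 and Atn1 a progesterone loop also lay that near.

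In the other direction 235 of the 1400 progesterone short loops were in neither vehicle list (16.8%, 14.9 to 18.8). The share was 14.8% of all progesterone loops and 5.85% (259 of 4427) of its longer loops with 5 kb anchors. Gja1, the gap junction gene of the uterine muscle and stroma, had a 60 kb loop from 56375001 on chromosome 10 in the progesterone and the knockout lists and in neither vehicle list. Zfp143, an architectural factor gene, had a 60 kb loop to the cell cycle kinase gene Wee1 in the same pair of lists. Each vehicle list had 3 loops at an end of Gja1, none of them short, and 0 of any length at Zfp143. Lmod1, a smooth muscle gene, had a 40 kb progesterone loop, but a loop of vehicle replicate 2 lay within 25 kb of both anchors there. Lonrf1 had 2 such loops and Zfp446 had 2, and 2700062C07Rik, 8030462N17Rik and Aamp had 1 each, and both Zfp446 loops had a vehicle loop within 25 kb of both anchors. Of the 1400 progesterone short loops, 126 were matched in the knockout alone and 109 in no other list. Between the vehicle lists, 36.1% of the vehicle replicate 2 short loops that progesterone shared were not in vehicle replicate 3, and 5.71% of those of vehicle replicate 3 that it shared were not in vehicle replicate 2. The like value for progesterone, 16.8% of the short loops of both vehicle lists not in its list, lies inside that range. For longer loops the vehicle values were 17.8% and 2.49%, and the 9.49% for progesterone lies between them. The 235 loops are another measure, since they had to be absent from both vehicle lists.

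In the knockout list 47 of the 910 short loops of both vehicle lists were not listed (5.16%, 3.82 to 6.81). The share was 10.0% for loops of all kinds and 6.22% (5.56 to 6.92) for longer loops with 5 kb anchors. Near 32 of the 47, within 25 kb at both ends, lay a knockout loop. None of the 47 stood at a gene of the gene lists. The knockout list held a 40 kb loop inside Abcc3, a transporter gene, and no match to a 60 kb loop at Abcc3 and Ankrd40. That loop, from 94340001 on chromosome 11, had the same bins in the progesterone and both vehicle lists. Arhgap27, Atp2b4 and Card9 were at other such loops, and at Abcc3, Arhgap27 and Card9, but not at Atp2b4, a knockout loop lay within 25 kb of both anchors. Of the 757 short loops found in all 3 wild-type lists 22 were not in the knockout list (2.91%, 1.83 to 4.37), against 6.70% for loops of all kinds. Longer loops with 5 kb anchors were not counted apart there. Gsn and Zfpm1 each had an end at a loop among the 22, and a 40 kb loop inside Synpo2 on chromosome 3 was another. These 3 genes were picked with their values in view.

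The knockout list held 2046 short loops that were in neither vehicle list (49.6%, 48.1 to 51.2). The share was 40.6% of all knockout loops and 29.5% (2955 of 10030) of its longer loops with 5 kb anchors. The 2046 loops included 2 of Zfp143, and 1 each at Cdh1, the epithelial cadherin gene, and Ccnb1, a mitotic cyclin gene. Cdkn1c, a cell cycle inhibitor gene, and Cebpd, a transcription factor gene, also had 1 each. The Cdh1 loop was 40 kb long, from 106560001 on chromosome 8, and was in the knockout list alone, as were the 35 kb Ccnb1 and 55 kb Cdkn1c loops. The 60 kb Cebpd loop from 15885001 on chromosome 16 was matched in the progesterone list. Each vehicle list had 3 loops at an end of Cebpd, none of them short, and 0 of any length at Cdh1, Ccnb1 or Cdkn1c. Outside the lists, 1700037C18Rik, Abtb1, Actn3, Adamts7 and Aldh3a2 each had 2, and both loops of 1700037C18Rik and 1 of Abtb1 had a vehicle replicate 2 loop within 25 kb of both anchors. Between the vehicle lists, 53.6% of the vehicle replicate 2 short loops that the knockout shared were not in vehicle replicate 3, and 7.47% of those of vehicle replicate 3 were not in vehicle replicate 2. With 1 knockout library and unknown depth, the number of calls and the genotype cannot be told apart.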

How the data were processed

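Per the labels' protocols, Hi-C used the Arima kit. The authors deposited 1 list of loops per library, with 6 columns of positions and no header. Positions are on mm10 and Juicer 1.5.6 was used, per the submitters' processing notes; the sources used here do not name the loop caller or its thresholds. Starts count from 0 in the files and are written from 1 here. No contact counts were used, so depth is unknown. The mm10 genome itself was not used, so anchors were not read.

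Loops with 5 kb anchors and starts 35 to 60 kb apart were kept, and compared with those of over 60 kb. The gene table, from RefSeq on GRCm38.p6 (equal to mm10 in position), has 21627 protein-coding genes without strand, and a gene counted as at an anchor that contained either of its ends. Transcription starts came from the RefSeq promoter table, which covers 17273 of these genes. In 14 lists there were 303 entries for 295 genes, and every entry matched, 1 by a synonym. Members and lists were chosen with earlier results of these data known.

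Named were up to 15 list genes at loops found in all 4 lists, up to 5 list and 5 other genes in each direction of each comparison, the 5 genes with the most short loops at an end and the 5 holding the most, the first 5 stretches and 10 loops with gene ends at both anchors, and in any case the Hoxa and Hoxd genes, Esr1, Greb1, Igf1, Ihh and Pgr. Some of the genes so chosen are left out of the text. Others named as members of a list or by a CTCF match were chosen after their values were seen. Short and longer loops were compared over the 4 libraries by an exact sign-flip permutation test with Benjamini-Hochberg adjustment. Alternatives were the length range, the bins, the match distance, the gene rule and leaving out a vehicle replicate. The matching was tested on listed short loops of vehicle replicate 2 with 1 anchor shifted by known distances, and the gene annotation on a made-up example. Python 3.11.15 was used with numpy 2.4.6, pandas 2.3.3, scipy 1.17.1 and matplotlib 3.10.9.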

Additional observations from a re-analysis of the deposited data

How the results depend on the processing

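The number of short loops in each list stayed within 1.5 times under other length limits and with 10 kb anchors. Sharing moved with the match rule. With 0 kb added, 41.3% of the knockout, 73.1% of the progesterone, 66.4% of the vehicle replicate 2 and 71.7% of the vehicle replicate 3 short loops were in another list, with 25 kb 61.1%, 95.9%, 89.2% and 97.3%, with matches limited to short loops 48.8%, 89.6%, 78.8% and 90.1%, and with the same bins 37.7%, 70.3%, 62.0% and 69.3%. The share of vehicle replicate 3 in vehicle replicate 2 was 55.2%, 92.2%, 79.7% and 53.8% in the same order of rules. Loops in all 4 lists numbered 366 with 0 kb added and 316 with the same bins, against 735. All 48 values for single pairs of lists moved as well.

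Short loops of both vehicle lists not in the progesterone list numbered 173 to 1185 when 1 vehicle replicate was left out, the larger value without replicate 3, and those not in the knockout list 97 to 510. With 0 kb added the knockout list lacked 117 and with 25 kb added 19. Progesterone loops in neither vehicle list numbered 530 with 0 kb added and 281 to 636 with 1 replicate left out, the larger without replicate 2, and knockout loops 2156 to 3127. The mean share of short loops with a gene end at an anchor was 80.2% within 10 kb, 85.1% with any overlap and 43.1% with transcription starts. A whole gene lay between the inner edges of 24.8%, and both anchors overlapped the same gene in 24.5%. With longer loops limited to 200 kb, the mean of all 12 short minus longer differences kept its sign, but nesting in a longer loop dropped to 0.642 percentage points with that sign in 2 of 4 libraries (exact permutation p = 0.5), and the other 11 had 1 sign in 4 of 4. All 12 kept their sign without either vehicle replicate, at exact permutation p = 0.25, the smallest for 3 libraries. Of 56 gene list counts, 15 moved by over 1.5 times when any overlap of the gene counted. Looser rules count more by construction, and the cause of the other shifts was not tested. No paired analysis was possible because the groups share 1 replicate number, each arm but the vehicle has 1 library, and the lists hold positions with no test.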
